A study of Homo sapiens with 20 samples.

Results

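Retinoic acid signalling was examined in 5 established triple-negative breast cancer (TNBC) cell lines through 9 genes, namely the receptors RARA, RARB and RARG, the retinol transporter STRA6, the enzymes DHRS3, CYP26A1 and CYP26B1, the carrier CRABP2 and the target RARRES1. These genes were read by 18 of the 47319 probes on the array and are 9 of the 20046 genes named there. They were chosen by measured values of these same arrays, that is, their level in untreated cells of each line and the difference between treated and untreated cells in each line, so both are given below as descriptions without a test. The study asked which genes respond when TNBC cells meet the milieu of a healing surgical wound. Cells of MDA-MB-231, BT549 and MDA-MB-157 (called mesenchymal-like) and of MDA-MB-468 and SUM149 (called basal-like) were kept for 24 h without serum. The WHF-treated cultures then received wound healing fluids (WHFs), drained after surgery from breast cancer patients and pooled, at 5% of the medium for 48 h, and the untreated cultures were kept without WHFs. Each line had 2 cultures per treatment, called A and B, which makes 20 arrays. Whether cultures A and B received the same pool is not given in the sources used here.

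Retinoic acid is made in cells from retinol (vitamin A), which STRA6 takes up from its carrier in blood, by oxidation to retinal and then to the acid. DHRS3 turns retinal back to retinol, CYP26A1 and CYP26B1 break retinoic acid down, and CRABP2 carries it to the nucleus. There the receptors RARA, RARB and RARG, bound to DNA as pairs with a retinoid X receptor such as RXRA, switch genes on when retinoic acid binds them, and several genes of the pathway (RARB, CYP26A1, DHRS3, STRA6, CRABP2 and RARRES1) are known as targets of this switch in other cells.

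The receptor pair is known to bind 2 copies of a hexamer in the same direction, so the 300 bases around each annotated start of transcription (250 before to 50 after, RefSeq, GRCh38.p14) were searched on both strands for 4 half-sites and for direct repeats of them with 1, 2 or 5 bases between. The classical half-site is AGGTCA, and the search also took AGTTCA, known from the element of the RARB promoter, as well as the versions of both that begin with guanine, which are spelled GGGTCA for the classical hexamer and GGTTCA for the other. A single half-site was found in 13548 of 35116 windows over all genes (38.6%) and in 10 of the 21 windows of the 9 genes. A direct repeat with 5 bases between was found in 31 of all windows (0.0883%), with 2 between in 14 (0.0399%) and with 1 between in 46 (0.131%). Among the 9 genes, RARB window 1 (chr3:25428013-25428312, plus strand) and CYP26A1 window 2 (chr10:93073643-93073942, plus strand) held a repeat with 5 between, and none of the other 19 windows held a repeat. Both windows are shown for that repeat, with STRA6 window 1 (chr15:74212210-74212509, minus strand) and DHRS3 window 2 (chr1:12616740-12617039, minus strand) because these genes had the largest differences in SUM149. Sequences run 5′ to 3′ along the gene, and capitals mark half-sites on either strand.
RARB window 1: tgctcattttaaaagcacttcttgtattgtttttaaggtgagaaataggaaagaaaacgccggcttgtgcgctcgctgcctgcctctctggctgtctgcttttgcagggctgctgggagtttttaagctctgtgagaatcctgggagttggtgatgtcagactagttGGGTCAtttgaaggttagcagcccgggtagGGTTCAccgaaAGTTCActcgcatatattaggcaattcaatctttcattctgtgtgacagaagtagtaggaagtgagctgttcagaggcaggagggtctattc
CYP26A1 window 2: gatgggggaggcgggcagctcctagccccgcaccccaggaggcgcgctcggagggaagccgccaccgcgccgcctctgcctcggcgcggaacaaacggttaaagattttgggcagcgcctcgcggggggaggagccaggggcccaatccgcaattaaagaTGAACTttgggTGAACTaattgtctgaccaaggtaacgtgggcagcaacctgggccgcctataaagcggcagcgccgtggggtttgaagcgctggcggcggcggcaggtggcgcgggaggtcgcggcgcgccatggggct
STRA6 window 1: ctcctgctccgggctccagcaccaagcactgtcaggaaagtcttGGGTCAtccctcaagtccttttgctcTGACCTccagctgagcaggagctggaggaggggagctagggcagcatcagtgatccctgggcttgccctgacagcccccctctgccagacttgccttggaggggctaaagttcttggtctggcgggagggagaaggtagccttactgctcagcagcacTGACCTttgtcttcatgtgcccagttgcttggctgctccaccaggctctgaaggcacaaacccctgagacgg
DHRS3 window 2: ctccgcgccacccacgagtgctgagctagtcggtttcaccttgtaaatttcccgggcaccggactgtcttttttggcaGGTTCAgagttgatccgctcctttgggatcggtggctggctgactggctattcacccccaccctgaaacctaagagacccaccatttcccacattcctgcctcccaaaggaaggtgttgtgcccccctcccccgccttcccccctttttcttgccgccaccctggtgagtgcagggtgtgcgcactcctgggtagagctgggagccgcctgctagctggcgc
In RARB the repeat ran from position −53 to −37, counted from the annotated start. In CYP26A1 it lay on the opposite strand between positions −90 and −74. STRA6 window 1 held 3 half-sites, at none of the spacings searched, and DHRS3 window 2 held 1. A half-site stood in 2 of the 5 STRA6 windows and in 2 of the 3 DHRS3 windows, and the windows shown are among these. A match describes these letters only, and binding was not measured.

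**Figure D1:**
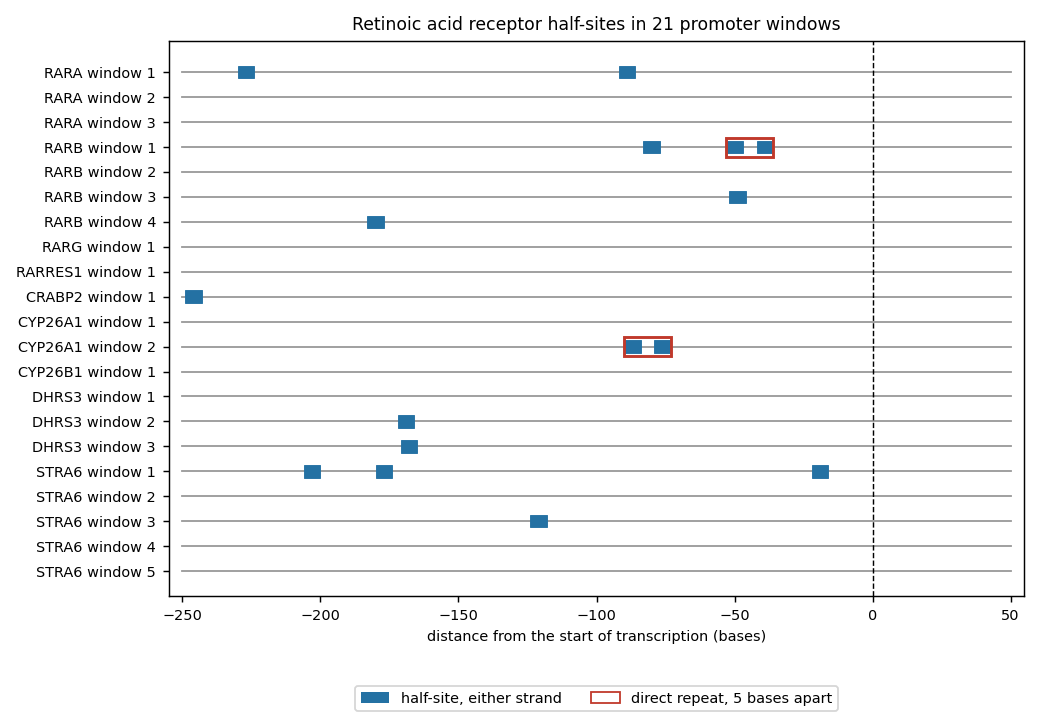
Retinoic acid receptor half-sites (filled) and direct repeats with 5 bases between (outlined) in the 21 promoter windows of the 9 genes, plotted by distance in bases from the annotated start of transcription. Repeats stand in 1 window of RARB and 1 of CYP26A1.

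On each array 19693 to 22865 probes were above background (a detection p under 0.05), the fewest in SUM149 WHF-treated culture B, and the median bead signal lay between 117 and 163. MDA-MB-231 was hybridised on 1 chip, BT549 and MDA-MB-157 shared another, and MDA-MB-468 and SUM149 shared the last, so treated and untreated cells of a line were compared within a chip, while levels of lines on different chips cannot be told apart from their chip. Among epithelial markers CDH1 was above background on every array of MDA-MB-468 and SUM149, and in BT549 none of CDH1, EPCAM, KRT8 and KRT18 was on any array. EPCAM, KRT8 and KRT18 were on every array of the other lines, and CDH1 was also on 1 untreated array of MDA-MB-157. Of mesenchymal markers, VIM was on every array of every line, FN1 on arrays of every line and CDH2 on arrays of every line but MDA-MB-468. Of 5 blood cell markers, PTPRC and CD3E were on 0 of 20 arrays in both treatments and CD14 was on all of them. LYZ was on some arrays of BT549, MDA-MB-468 and SUM149, and HBB on 1 untreated array of MDA-MB-468. The summed signal of the 5 blood cell markers was 324 to 5002 in WHF-treated and 309 to 2058 in untreated cultures, and its part in the results was not tested. Arrays of whole cultures cannot tell fewer cells with a transcript from less of it per cell. Levels below are log2 values of the background-corrected, quantile-normalized signal of 1 probe, differences are WHF-treated minus untreated on that log2 scale, and errors of differences are standard errors (SE) from a fit that pooled the spread between cultures over the 10 groups of 2. A difference given for culture A or B sets the treated against the untreated culture of that letter, although the letters are not stated to mark pairs.

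Among the receptors, RARA differed most between treatments. RARA, the receptor found in most tissues, had log2 levels of 6.56 and 7.33 in WHF-treated BT549 cells, against 10.44 and 10.50 in untreated BT549 cells. In SUM149 its levels were 7.50 and 5.71 in WHF-treated cells, the second value not above background, against 9.12 and 9.03 in untreated cells. MDA-MB-231 had levels of 9.26 and 9.44 with WHFs, against 10.22 and 10.58 without. Both treated cultures thus lay below both untreated ones in these 3 lines, with differences of −3.52 (11.5-fold lower), −2.47 and −1.05 (each ± 0.40, SE). Of the 2 treated SUM149 cultures only A was measured above background, with a difference of −1.62, so the −2.47 rests in part on an unmeasured level. The difference had the opposite sign in MDA-MB-468, with levels of 10.77 and 10.61 in WHF-treated cells against 10.33 and 10.29 in untreated cells (0.38 ± 0.40). In MDA-MB-157 the levels overlapped, at 10.51 and 10.44 in WHF-treated and 10.61 and 10.04 in untreated cells. All these values come from ILMN_1659206, above background on 19 of 20 arrays. Of the other RARA probes, ILMN_1677197 was above background on 2 arrays and ILMN_1791902 on 0, with differences of −0.27 to 0.20, so the RARA values rest on 1 probe.

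RARB, a receptor that is itself a target of retinoic acid, was clearly above background in BT549 and dim in the other lines. RARG, the receptor known best from skin, was dim in every line and not above background in BT549. The RARB probe on most arrays, ILMN_2390526 (16 of 20), had its highest levels in BT549, at 7.69 and 7.46 in WHF-treated and 6.99 and 7.38 in untreated cells. These groups did not overlap, but the difference of 0.39 was not much above its error of 0.26 (SE), and in the other 4 lines the RARB levels of both treatments overlapped. The other RARB probes, on 10 and 6 arrays, were also highest in BT549, with differences there of 0.61 and 1.01. RARG was above background on 10 of 20 arrays, with log2 levels between 4.97 and 6.34, and its differences lay between −0.20 and 0.26 over the 5 lines.

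**Figure D2:**
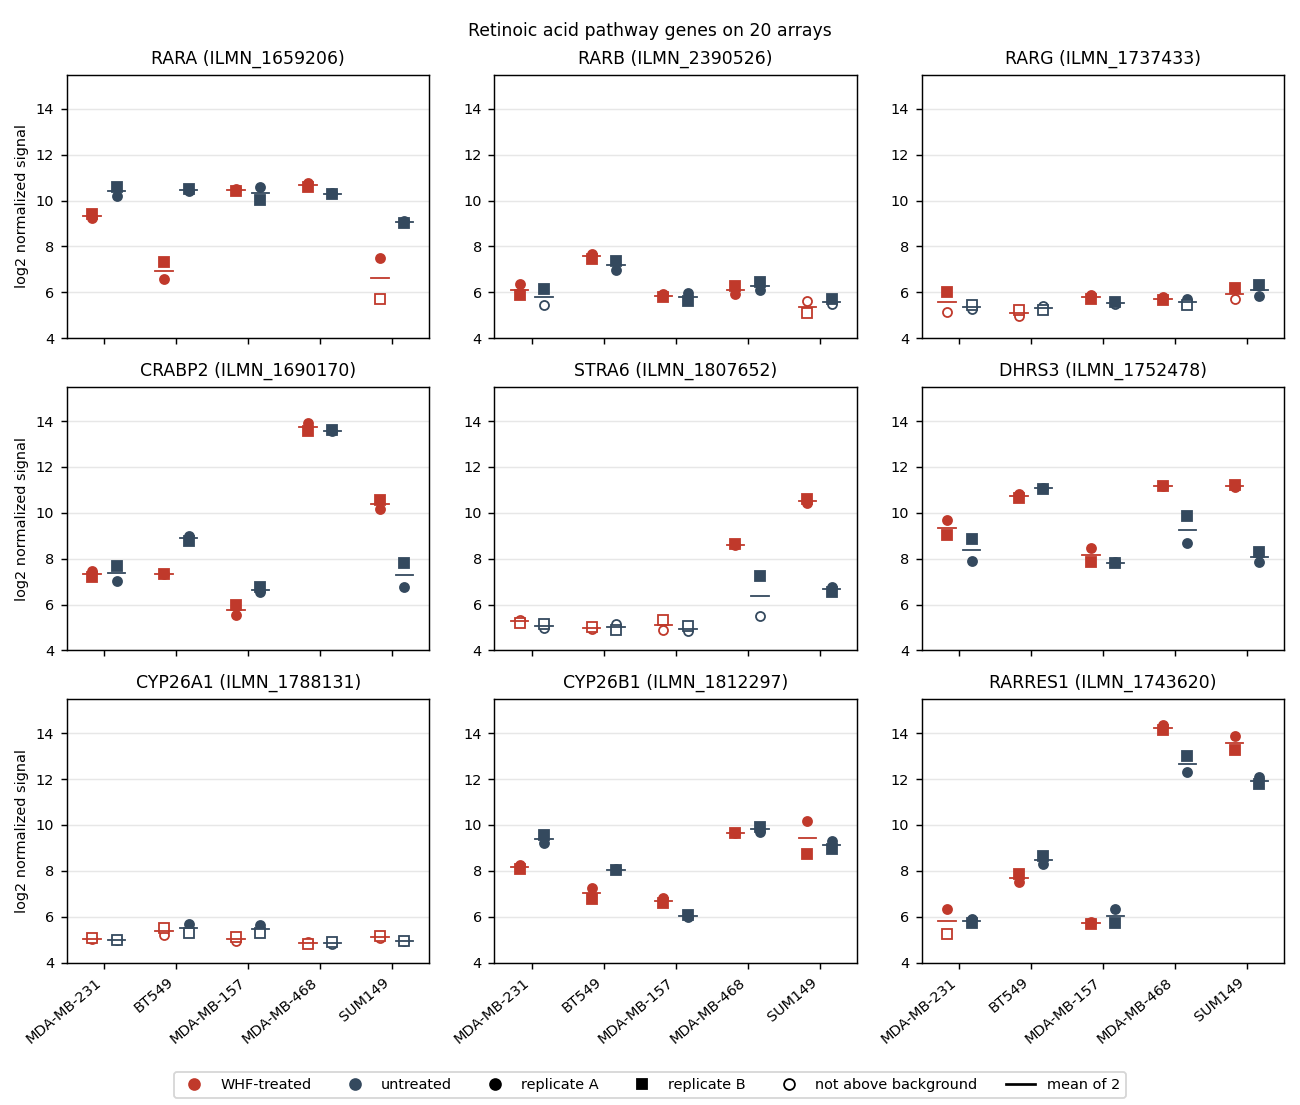
Log2 normalized signal of the 9 genes on 20 arrays, 1 probe per gene, for WHF-treated (left of each pair) and untreated cultures of each line, with bars at the mean of 2 cultures and open symbols not above background. STRA6 was above background only in MDA-MB-468 and SUM149, and RARA of WHF-treated BT549 cells lay at 6.56 and 7.33, under the untreated 10.44 and 10.50.

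STRA6, the membrane receptor through which cells take up retinol, was seen only in the basal-like lines. In SUM149 its log2 levels were 10.42 and 10.62 in WHF-treated cells, against 6.77 and 6.56 in untreated cells, a difference of 3.85 (14.4-fold higher). In MDA-MB-468 its levels were 8.58 and 8.65 in WHF-treated cells, against 5.49 (not above background) and 7.22 in untreated cells, a difference of 2.26. The groups did not overlap in either line, and the 2 untreated MDA-MB-468 cultures lay far apart. On none of the 12 arrays of MDA-MB-231, BT549 and MDA-MB-157 was STRA6 above background. Being above background on 7 of 20 arrays, ILMN_1807652 did not pass the filter of 10 arrays and has no fitted error.

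DHRS3, the reductase that returns retinal to retinol, differed most in SUM149 and MDA-MB-468. Its log2 levels in SUM149 were 11.13 and 11.23 in WHF-treated cells, against 7.86 and 8.29 in untreated cells, a difference of 3.10 ± 0.35 (8.60-fold higher). In MDA-MB-468 it stood at 11.19 and 11.19 in WHF-treated cells, against 8.68 and 9.85 in untreated cells (1.92 ± 0.35). Treated cultures of both lines reached nearly the same level. MDA-MB-231 had levels of 9.68 and 9.03 in WHF-treated cells, against 7.89 and 8.85 in untreated cells, a difference of 0.98 that was 1.79 in culture A and 0.18 in culture B. MDA-MB-157 had 8.48 and 7.86 with WHFs, against 7.84 and 7.81 without (0.35), and thus separated by little. BT549 went the other way, with levels of 10.83 and 10.66 in WHF-treated cells against 11.10 and 11.05 in untreated cells (−0.33 ± 0.35).

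CRABP2, which hands retinoic acid to RARA in the nucleus, had differences of opposite sign in SUM149 and BT549. In SUM149 its log2 levels were 10.18 and 10.57 in WHF-treated cells, against 6.75 and 7.80 in untreated cells, a difference of 3.10 ± 0.29 (8.56-fold higher). In BT549 they were 7.31 and 7.34 in WHF-treated cells, against 8.99 and 8.77 in untreated cells (−1.55 ± 0.29, 2.94-fold lower). Treated and untreated cultures were apart in both lines. MDA-MB-157 was also lower, at 5.56 and 5.99 in WHF-treated and 6.54 and 6.76 in untreated cells (−0.87 ± 0.29). In MDA-MB-468, where CRABP2 was highest of the 5 lines, the levels overlapped at 13.90 and 13.59 in WHF-treated and 13.55 and 13.60 in untreated cells. MDA-MB-231 overlapped as well, with 7.47 and 7.20 in WHF-treated and 7.04 and 7.69 in untreated cells.

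Of the enzymes that break retinoic acid down, only CYP26B1 gave a signal. CYP26A1, often among the genes that retinoic acid induces most, was read by 4 probes, of which 3 were on 0 of 20 arrays and ILMN_1788131 on 2, both untreated (culture A of BT549 and of MDA-MB-157). Its log2 levels over the 4 probes ran between 4.57 and 5.70, and no fold is given. CYP26B1 was above background on 20 arrays. In MDA-MB-231 its levels were 8.27 and 8.10 in WHF-treated cells, against 9.20 and 9.56 in untreated cells (−1.20 ± 0.32, 2.29-fold lower). BT549 showed 7.26 and 6.78 in WHF-treated cells, against 8.08 and 8.03 in untreated cells (−1.03 ± 0.32). MDA-MB-157 differed in the other direction, with 6.80 and 6.61 in WHF-treated and 5.99 and 6.08 in untreated cells (0.67 ± 0.32). The groups separated in these 3 lines. MDA-MB-468 was at 9.64 and 9.63 in WHF-treated and 9.71 and 9.90 in untreated cells, apart by little, and SUM149 overlapped, with treated cultures at 10.15 and 8.72 on both sides of the untreated 9.28 and 8.97.

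RARRES1, a membrane protein named for its induction by retinoic acid in skin, had high levels in the basal-like lines and was higher there with WHFs. At ILMN_1743620 its log2 levels in SUM149 were 13.88 and 13.27 in WHF-treated cells, against 12.09 and 11.77 in untreated cells (1.64 ± 0.33, 3.12-fold higher). MDA-MB-468 had levels of 14.36 and 14.14 in WHF-treated cells, against 12.31 and 13.01 in untreated cells (1.59 ± 0.33, 3.01-fold higher). Neither line showed overlap, and all 3 RARRES1 probes had the same sign in both. ILMN_1677851 differed by 2.66 in SUM149 and 1.62 in MDA-MB-468, and ILMN_1800091 by 1.54 and 1.84 in the same 2 lines. In BT549 the sign was opposite, with 7.50 and 7.88 in WHF-treated and 8.31 and 8.65 in untreated cells at ILMN_1743620 (−0.79 ± 0.33), and the other probes differed by −0.43 and −0.50. MDA-MB-231 and MDA-MB-157 stayed between 5.24 and 6.35 at this probe, with overlap.

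**Figure D3:**
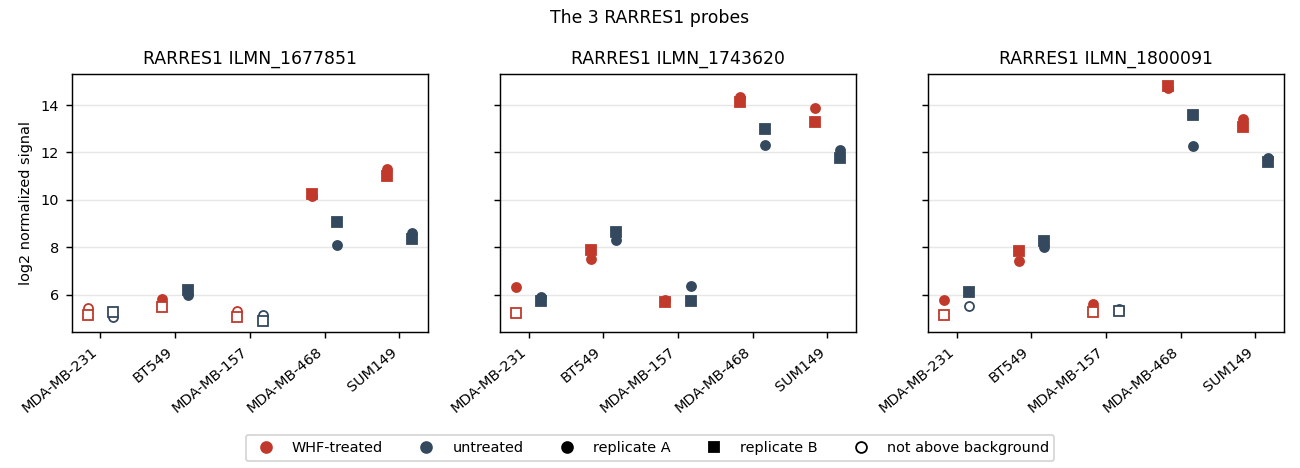
Log2 normalized signal at the 3 RARRES1 probes for WHF-treated (left of each pair) and untreated cultures of 5 lines, with open symbols not above background. At each probe the treated cultures of MDA-MB-468 and SUM149 lie above the untreated ones, and those of BT549 lie below.

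Set side by side, STRA6, DHRS3 and RARRES1 were higher with WHFs in both basal-like lines. In the mesenchymal-like lines STRA6 was not above background and could not be compared. DHRS3 was higher in MDA-MB-231 (0.98) and MDA-MB-157 (0.35) as well, and lower in BT549 (−0.33). RARRES1 was lower in BT549 (−0.79) and overlapped in MDA-MB-231 and MDA-MB-157. The basal-like lines also share a chip, and no difference between the classes was tested. In SUM149, STRA6, DHRS3, CRABP2 and RARRES1 were higher by 1.64 to 3.85 on the log2 scale, while RARA was lower (−1.62 in culture A, and not above background in treated culture B). MDA-MB-468 had higher STRA6, DHRS3 and RARRES1, by 1.59 to 2.26, with differences of 0.17 for CRABP2 and 0.38 for RARA. BT549 had RARA, CRABP2 and CYP26B1 lower by more than 1 log2 unit. MDA-MB-231 had RARA and CYP26B1 lower by more than 1, with DHRS3 at 0.98. In MDA-MB-157 no member differed by more than 1, the largest being CRABP2 at −0.87. For both DHRS3 and RARRES1 in MDA-MB-468, untreated culture B was higher than untreated culture A, and the difference was larger in culture A (2.51 and 2.05) than in culture B (1.34 and 1.13). For STRA6 there, the difference was 1.43 in culture B, while untreated culture A was not above background, so the 2.26 rests on 1 measured untreated culture.

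**Figure D4:**
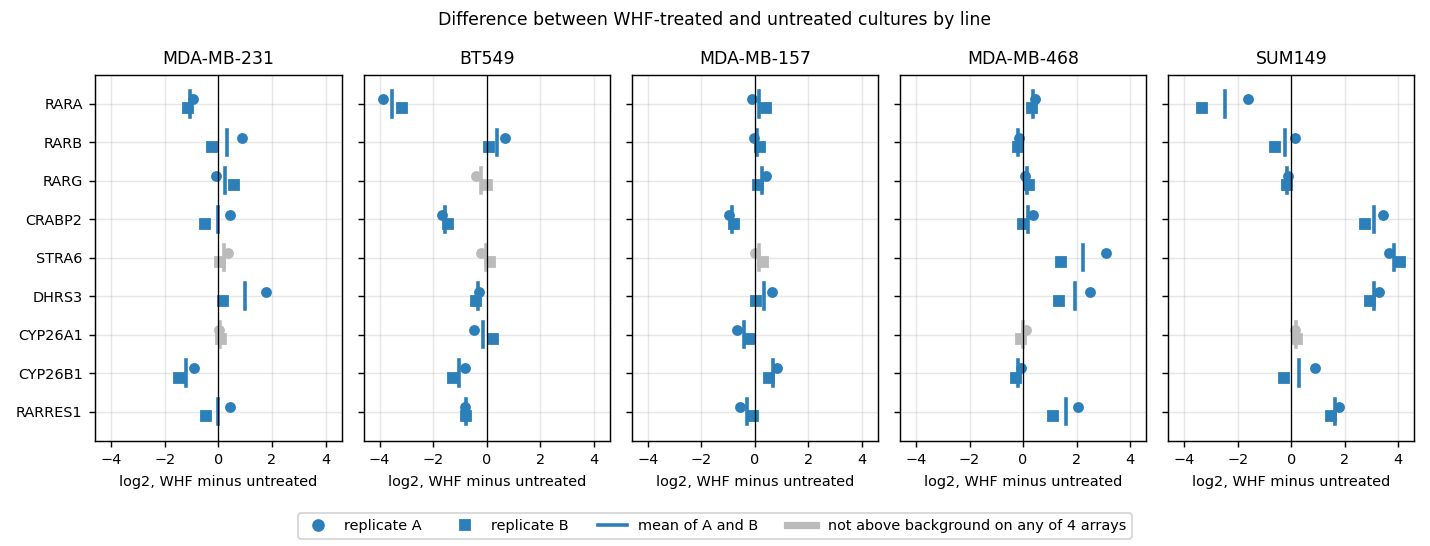
Log2 difference between WHF-treated and untreated cultures for the 9 genes, 1 panel per line, with symbols for cultures A and B, bars for their mean and grey where none of the 4 arrays was above background. The widest spread between lines is that of CRABP2, from −1.55 in BT549 to 3.10 in SUM149.

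Of the 9 members, 7 passed the filter on dim probes, by 10 of their 18 probes, and these 7 were set against the call used for all probes (limma, adjusted p under 0.1 and more than 2-fold). Since the members were selected on these differences, the counts describe the selection and nothing is read from them. In MDA-MB-231, 0 of 7 were called higher and 2 lower (RARA, CYP26B1), where 2.80% of all 21189 tested probes were called higher and 3.83% lower. In BT549 the counts were 0 higher and 3 lower (RARA, CRABP2, CYP26B1), with 4.53% and 6.37% over all probes. MDA-MB-157 had 0 in either direction, with 1.03% and 1.36%. MDA-MB-468 had 2 higher (RARRES1, DHRS3) and 0 lower, with 0.826% and 0.779%. SUM149 had 3 higher (RARRES1, CRABP2, DHRS3) and 1 lower (RARA), with 3.90% and 6.50%. Without MDA-MB-468 untreated culture A that line's count was 0, and without its WHF-treated culture A it was 1. In MDA-MB-231 the count was 1 without WHF-treated culture A, and likewise without untreated culture A or untreated culture B.

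In untreated cells the lines differed widely in CRABP2 and RARRES1, whose means spanned 6.93 and 6.85 on the log2 scale, and less in CYP26B1 (3.77), DHRS3 (3.25) and RARA (1.39). CRABP2 had its highest untreated mean in MDA-MB-468, at a log2 level of 13.57 ± 0.04 (SD, n = 2), which was 4.69 above the next line, BT549. MDA-MB-231, SUM149 and MDA-MB-157 followed at 7.37 ± 0.46, 7.28 ± 0.74 and 6.65 ± 0.15, neighbours whose cultures overlapped. For RARRES1 the order was MDA-MB-468 at 12.66 ± 0.49, SUM149 at 11.93 ± 0.22, BT549 at 8.48 ± 0.24, MDA-MB-157 at 6.04 ± 0.44 and MDA-MB-231 at 5.81 ± 0.13, the last 2 with overlapping cultures. DHRS3 was ordered in another way, being highest in BT549 at 11.08 ± 0.03, then 9.26 ± 0.82 in MDA-MB-468, 8.37 ± 0.68 in MDA-MB-231, 8.08 ± 0.31 in SUM149 and 7.83 ± 0.02 in MDA-MB-157, where MDA-MB-231 overlapped with both MDA-MB-468 and SUM149. CYP26B1 ran from 9.81 ± 0.13 in MDA-MB-468 to 6.03 ± 0.07 in MDA-MB-157, and only MDA-MB-231 and SUM149 overlapped as neighbours. Untreated RARA was much alike in 4 lines (10.31 to 10.47, all neighbours overlapping) and lower in SUM149 at 9.08 ± 0.06. On a shared chip, untreated MDA-MB-468 exceeded untreated SUM149 in CRABP2, CYP26B1, DHRS3 and RARA with no overlap and in RARRES1 at 2 of its 3 probes (at ILMN_1677851 they overlapped, with means of 8.60 and 8.49), and untreated BT549 exceeded untreated MDA-MB-157 in CRABP2, RARRES1, CYP26B1 and DHRS3 with no overlap.

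The rest of the pathway was read from 50 other genes in 3 lists, written from general knowledge with earlier results of these data known. Of these, 27 were tested, 15 did not pass the filter and 8 were not analysed here. Within single lines 4 of 27 were called in MDA-MB-231 (2 higher, 2 lower), 7 in BT549 (3 higher, 4 lower), 2 in MDA-MB-157 (0 higher, 2 lower), 0 in MDA-MB-468 and 8 in SUM149 (5 higher, 3 lower). Beside these counts, the shares of all tested probes called higher and lower were 2.80% and 3.83% in MDA-MB-231, 4.53% and 6.37% in BT549, 3.90% and 6.50% in SUM149, 1.03% and 1.36% in MDA-MB-157, and 0.826% and 0.779% in MDA-MB-468. Nothing particular to these lists is read from the counts. In MDA-MB-468, 7 of the 27 had an unadjusted p under 0.05, and 1 was called in a fit with the replicate letter as a block. The median difference over the 27 genes was −0.02 in MDA-MB-231, −0.17 in BT549, −0.22 in MDA-MB-157, 0.06 in MDA-MB-468 and 0.03 in SUM149, beside medians of −0.0037 to 0.022 over all tested probes. Leaving out 1 array took the count in MDA-MB-231 to 1 (untreated culture A), in BT549 to 4 (WHF-treated culture A), in MDA-MB-157 to 0 (WHF-treated culture A) or 1 (untreated culture A) and in MDA-MB-468 to 1 (WHF-treated culture B).

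Among 7 tested partners of the pathway, RXRA, the DNA-binding partner of the receptors, fell in the same 3 lines in which RARA was lower. Its log2 levels in BT549 were 7.80 and 7.76 in WHF-treated cells, against 9.76 and 9.72 in untreated cells, a fall of 1.96 ± 0.20 (adjusted p = 7.4e-06). In MDA-MB-231 they were 8.32 and 8.48 in WHF-treated cells, against 9.96 and 10.19 in untreated cells (−1.68, adjusted p = 7.1e-05), and in SUM149 8.73 and 7.95 against 9.63 and 9.64 (−1.30, adjusted p = 0.000277). MDA-MB-157 and MDA-MB-468 had differences of −0.22 and 0.51, with adjusted p of 0.612 and 0.195. At the brightest probe of each gene, the sole other partner called was FABP5, in SUM149. FABP5, which carries retinoic acid to another receptor, PPARD, rose in SUM149 by 1.69 (adjusted p = 0.000599). In MDA-MB-468 FABP5 was on 0 of 4 arrays. PPARD itself was not called at its brightest probe (0.28 in SUM149, adjusted p = 0.348). At a dimmer one, ILMN_1779794, singled out after its values were seen, PPARD was called higher in SUM149 (1.31, adjusted p = 0.000916). Levels there were 6.87 and 7.09 in WHF-treated cells against 5.76 and 5.59 in untreated cells. The untreated 5.59 was not above background, so the 1.31 rests on 1 measured untreated culture.

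Among 6 tested genes of retinoid supply, ALDH1A3, an enzyme that makes retinoic acid from retinal, rose in MDA-MB-231 (1.10), BT549 (1.11) and SUM149 (1.45), with adjusted p of 0.0173, 0.0105 and 0.00227. Its log2 levels in SUM149 were 13.96 and 12.75 in WHF-treated cells, against 12.06 and 11.75 in untreated cells. The differences were 0.90 in MDA-MB-468 (adjusted p = 0.113) and 0.31 in MDA-MB-157 (adjusted p = 0.641). The other tested ALDH1A3 probe, ILMN_1807439, was called higher in MDA-MB-231 (1.02, adjusted p = 0.0317) and SUM149 (1.62, adjusted p = 0.00147). In BT549 its difference of 0.93 was under 2-fold and not called (adjusted p = 0.0353). RDH5, a retinol dehydrogenase known from the retinal pigment epithelium, fell in BT549, to log2 levels of 5.10 and 5.59 in WHF-treated cells that were not above background, against 6.60 and 6.45 in untreated cells, so at least 1.78-fold (adjusted p = 0.00332). No other gene of supply was called in a line.

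Among 14 tested genes known to respond to retinoic acid in some cell type, calls were made in both directions, with 1 called higher and 1 lower in MDA-MB-231, 2 higher and 2 lower in BT549, 3 higher and 2 lower in SUM149, 2 lower in MDA-MB-157 and 0 in MDA-MB-468, to be read beside the shares of all probes given above. GPRC5A, an orphan receptor first found as induced by retinoic acid, rose in SUM149 to 9.47 and 9.72 in WHF-treated cells, against 6.60 and 6.90 in untreated cells (2.84 ± 0.32, adjusted p = 2.3e-05). It also rose in BT549 (1.20, adjusted p = 0.0115) and MDA-MB-231 (1.09, adjusted p = 0.0278). SOX9, a transcription factor of progenitor cells, fell in BT549, to 7.66 and 7.56 in WHF-treated cells, against 10.81 and 10.82 in untreated cells (−3.20 ± 0.41, adjusted p = 4.9e-05). It was also called lower in SUM149 (−1.65, adjusted p = 0.00800) and MDA-MB-231 (−1.16, adjusted p = 0.0622). PLAAT4, also called RARRES3, fell in BT549 by 2.50 (adjusted p = 8.6e-07). FOXA1, a factor of luminal epithelium, fell by 1.52 in MDA-MB-157 (adjusted p = 0.0118) and rose by 1.43 in SUM149 (adjusted p = 0.00442). TGFB2, a growth factor, fell by 1.15 in MDA-MB-157 (adjusted p = 0.00810) and by 1.14 in SUM149 (adjusted p = 0.00213). Beyond the 6 genes taken per line, GPRC5C, a relative of GPRC5A, was called higher in BT549 (1.03, adjusted p = 0.000849) and IGFBP3, a binding protein of insulin-like growth factors, in SUM149 (1.29, adjusted p = 0.0549), both named after their values were seen. TGM2, a transglutaminase, was not called at its brightest probe in any line (−0.08 in MDA-MB-231, 0.66 in BT549 and 0.03 in SUM149). A dimmer probe, ILMN_1679267, was singled out after its values were seen. It was called higher in MDA-MB-231 (2.67, adjusted p = 2.3e-06) and SUM149 (2.24, adjusted p = 7.0e-06). It was also called higher in BT549, by at least 3.74-fold (adjusted p = 8.6e-06). The remaining probe, ILMN_1797236, was also higher, by 0.69 in MDA-MB-231, 0.76 in SUM149 and at least 1.54-fold in BT549, without a call. The probes thus disagreed in size, and in MDA-MB-231 also in sign.

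**Figure D5:**
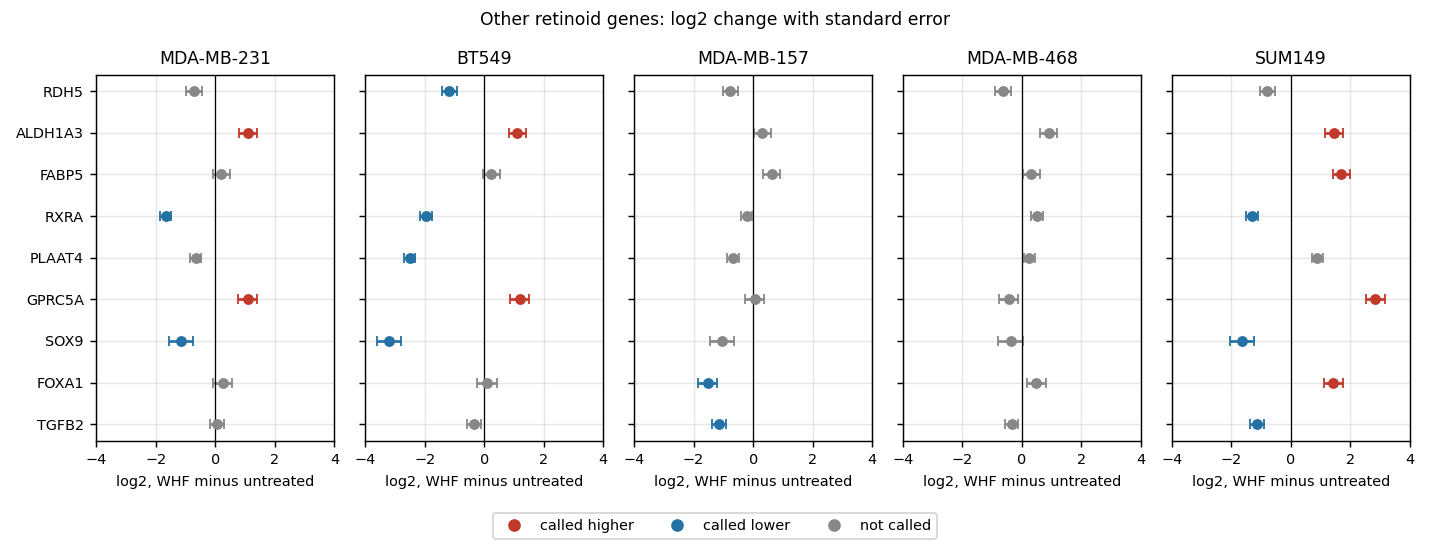
Log2 difference between WHF-treated and untreated cells, with its standard error, for 9 other retinoid genes named in the text, 1 panel per line, coloured where called (adjusted p under 0.1 and more than 2-fold). RXRA and SOX9 were called lower and ALDH1A3 and GPRC5A higher in MDA-MB-231, BT549 and SUM149.

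Differences between lines were tested directly for these 27 genes. The response differed between lines (limma F test, adjusted p under 0.1) for 12 of 27, where 41.1% of all tested probes passed the same test. The smallest adjusted p were those of PLAAT4 (1.8e-05), RXRA (0.000101) and GPRC5A (0.000780). For ALDH1A3 the adjusted p was 0.237, so its response was not shown to differ between lines. Untreated levels differed between lines for 27 of 27, beside 86.9% of all probes. Over the 5 lines together 0 of 27 were called by limma at an adjusted p under 0.1, beside 0.0755% of all probes (16), and 8 had an unadjusted p under 0.05. With the 10 treated and untreated pairs of the same line and letter as blocks, 9 of 27 were called, a fit in which each line enters with 2 pairs and in which 5369 of all probes were called. Without that block the nearest was RDH5, lower in 5 of 5 lines, with a mean difference of −0.82 on the log2 scale (adjusted p = 0.105). Treated RDH5 was above background only in 1 culture of MDA-MB-157, so this mean rests on levels near the floor. Next came ALDH1A3, higher in 5 of 5 lines, with a mean difference of 0.97 (adjusted p = 0.120). Its differences ran from 0.31 in MDA-MB-157 to 1.45 in SUM149.

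CRABP2 had the widest range of differences over the lines among members that passed the filter, so genes with a like pattern were sought over the 10 line-and-culture differences among 5353 probes whose difference varied by an SD of at least 0.5. The most alike were MB, which encodes myoglobin (r = 0.977), ANO1, a chloride channel (0.976), ARTN, a ligand of the RET system (0.971), POMT1, a mannosyltransferase (0.968), and ISYNA1, an enzyme of inositol synthesis (0.964). Each r is a description over points that share lines and chips, and each of the 5 genes differed most in SUM149. ARTN differed there by 3.55 and MB by 2.50 on the log2 scale, while in BT549 they differed by −1.05 and −0.31. ANO1, POMT1 and ISYNA1 differed by less, at 0.77, 0.77 and 0.72 in SUM149 and −0.61, −0.72 and −0.65 in BT549.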

How the data were processed

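Total RNA of 20 cultures was labelled with biotin and hybridised to Illumina HumanHT-12 beadchips, and the authors extracted signals with BeadStudio. The deposited bead table holds for each array the mean bead intensity, without normalization or background correction, and a detection p-value against negative controls. Intensities that the authors had quantile normalized stand in another deposited table, which served as an alternative. Of 47319 probes, 30112 have 1 gene symbol in the platform annotation supplied, 8 have several and 17199 none. The annotation may be of another array version than the one named in the methods, which can affect names.

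Intensities were corrected by normexp with the detection p-values, quantile normalized and put on log2 with an offset of 16 (limma 3.58.1, R 4.3.3). A probe was tested if its detection p was under 0.05 in 10 or more of the 20 arrays (21189 probes, 11864 genes). For single lines, limma fitted the means of 10 groups with 2 arrays each, and calls were made at an adjusted p (Benjamini-Hochberg over all tested probes) under 0.1 and more than 2-fold, differences between lines by its F test, and the 5 lines together on means of cultures A and B with the line as a block. A member with several probes was read at the probe detected on the most arrays, and a list gene at its brightest tested probe. The fit was tested on simulated data. The 9 members, the 3 lists (retinoid supply, retinoid partners, retinoic acid targets) and the alternatives were chosen with earlier results of these data known. Named are all members, up to 6 called genes of the lists per line by size of change, genes called over the 5 lines, and the 5 probes most like CRABP2. The series' design text calls the 2 cultures independent. The methods describe treated and untreated cells as pairs, but neither labels nor methods tie the letters to those pairs, so the letter as a block was an alternative. Arrays have no counting depth, and 2 cultures per group limit the precision. No column of per-sample values was left unassigned.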

Additional observations from a re-analysis of the deposited data

Results flagged for a closer look

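The response to WHFs differed between the 5 lines for 7 named genes of the lists by the limma F test, with adjusted p of 0.0374 for FABP5, 0.000101 for RXRA, 1.79e-05 for PLAAT4, 0.000780 for GPRC5A, 0.0142 for SOX9, 0.00270 for FOXA1 and 0.0262 for TGFB2. FOXA1 had opposite signs among these, with log2 differences of −1.52 in MDA-MB-157 and 1.43 in SUM149, the sole pair of called changes of opposite sign among the list genes named.

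CRABP2 was lower with WHFs in both cultures of BT549 (a difference of −1.55) and higher in both cultures of SUM149 (3.10). As CRABP2 was chosen on these values, the difference between lines was not tested.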

How the results depend on the processing

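All 11 called member differences kept their sign with the authors' normalized intensities, without normexp and with an offset of 50. They also did so in culture A or B alone, which was fixed in advance, since none of these groups overlapped. The members were chosen on these differences, so nothing is read from the kept signs. At the other RARRES1 probes the sign was kept in 4 of 4 values of MDA-MB-468 and SUM149. At the other RARA probes the sign carries no information, and it turned to 0.089 in BT549 and 0.20 in SUM149 at ILMN_1677197 and to 0.032 in SUM149 at ILMN_1791902, neither probe being above background in MDA-MB-231, BT549 or SUM149. The called members of MDA-MB-231 went to 0 with the authors' intensities or without normexp and to 1 with no filter, and in MDA-MB-157 there was 1 with no minimum fold. Leaving out 1 array gave 1 to 2 called members in MDA-MB-231 and 0 to 2 in MDA-MB-468.

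Of the other retinoid genes, with the authors' intensities or without normexp 3 were called in BT549, 0 in MDA-MB-157 and 1 in MDA-MB-468. An offset of 50 gave 4 in BT549 and 1 in MDA-MB-468, where detection on at least 2 arrays, no filter and the replicate block also gave 1. With no minimum fold the counts were 9 in MDA-MB-231, 12 in BT549, 4 in MDA-MB-157, 1 in MDA-MB-468 and 15 in SUM149. Leaving out 1 array gave 1 to 4 in MDA-MB-231, 4 to 9 in BT549, 0 to 2 in MDA-MB-157 and 0 to 1 in MDA-MB-468. With the replicate block, 9 were called over the 5 lines in place of 0, and 5369 probes in place of 16. Deviations of same-lettered arrays from their group means correlated at 0.299 (MDA-MB-157), 0.226 (MDA-MB-468), 0.154 (SUM149), 0.0589 (BT549) and 0.0399 (MDA-MB-231), not above 0.1 in every line, and the letters are not stated to mark pairs, so the block was kept as an alternative. Apart from these and the 1 list gene called in MDA-MB-468 in place of 0, it changed no count of called members or listed genes by over 1.5 times. Over all probes, the calls in a line ranged from 140 (MDA-MB-468, the authors' intensities) to 3376 (SUM149 without WHF-treated culture A). In all, 199 of 259 counts under an alternative stayed within 1.5 times the one reported. The cause of these changes was not tested. Calling a list gene at any of its probes was added after seeing the data. CYP26A1 in any line, and STRA6 in the mesenchymal-like lines, could not be compared at this signal.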
